A study of Homo sapiens with 2 samples.

Results

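Small nucleolar RNAs (snoRNAs) and small Cajal body RNAs (scaRNAs) were followed by RNA-seq in secondary mammospheres of the T47D line, with 1 control library and 1 labelled CIC knockdown. The members were selected on their counts: they are the genes of biotype snoRNA or guide RNA whose estimated counts in the 2 libraries summed to at least 100. They number 104 of the 570 genes of these biotypes, in a table of 46732 genes: 42 of 182 SNORA genes, 48 of 357 SNORD genes and 14 of 29 SCARNA genes. The other genes lay under the minimum, 176 of the 570 with no count in either library.

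T47D is an established luminal breast cancer line that expresses the estrogen receptor, and mammospheres are cell clusters grown without attachment. Both groups were grown for 7 days as primary and 7 days as secondary mammospheres, and their total RNA went into a stranded TruSeq total RNA kit. How CIC was knocked down is not stated in the labels. The design speaks of duplicates, yet each group has 1 column of values, and whether a column pools cultures is not stated, so no difference has a replicate check and no test was made.

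snoRNAs guide chemical modification of other RNAs by base pairing. Box C/D RNAs (mostly named SNORD) direct 2'-O-methylation with the methylase fibrillarin, box H/ACA RNAs (SNORA) direct pseudouridylation with dyskerin, and scaRNAs carry either or both architectures and act on spliceosomal snRNAs in Cajal bodies. A few, among them U3 and U17, are needed for cleavage of the ribosomal RNA precursor rather than for modification. Most human snoRNAs are cut from introns of host genes, while U3 is transcribed from its own promoter.

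Sequences of abundant RNAs of each class show the ends that the classes share. SNORD3A, the main U3 gene, lay at chr17:19188016-19188232 (plus strand), and its D box is in capitals. SCARNA5, known as U87, was the lowest of the abundant scaRNAs; it lay at chr2:233275727-233276002 (plus strand) inside ATG16L1 and shows both the C and the D box. SNORA73A and SNORA73B are the 2 copies of U17 inside RCC1, at chr1:28507366-28507571 and chr1:28508559-28508762 (plus strand), with their 3' ACA in capitals. Sequences and coordinates are those of GENCODE 29 on GRCh38, and the deposited intervals of SCARNA5 and U17 differ from them at the ends.
SNORD3A: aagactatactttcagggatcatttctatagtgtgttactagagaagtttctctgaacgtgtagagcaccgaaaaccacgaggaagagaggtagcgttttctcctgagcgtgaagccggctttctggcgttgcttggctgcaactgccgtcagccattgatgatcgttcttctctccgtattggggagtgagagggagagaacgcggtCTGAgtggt
SCARNA5: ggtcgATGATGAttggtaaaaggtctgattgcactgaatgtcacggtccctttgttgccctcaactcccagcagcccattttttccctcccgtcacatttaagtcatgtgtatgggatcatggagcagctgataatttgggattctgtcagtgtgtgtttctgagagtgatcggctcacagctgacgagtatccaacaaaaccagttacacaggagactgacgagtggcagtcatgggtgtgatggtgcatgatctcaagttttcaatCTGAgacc
SNORA73A: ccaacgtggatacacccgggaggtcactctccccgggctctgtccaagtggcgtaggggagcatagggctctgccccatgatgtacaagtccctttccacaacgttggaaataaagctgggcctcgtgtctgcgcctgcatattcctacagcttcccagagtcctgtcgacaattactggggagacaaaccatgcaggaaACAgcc
SNORA73B: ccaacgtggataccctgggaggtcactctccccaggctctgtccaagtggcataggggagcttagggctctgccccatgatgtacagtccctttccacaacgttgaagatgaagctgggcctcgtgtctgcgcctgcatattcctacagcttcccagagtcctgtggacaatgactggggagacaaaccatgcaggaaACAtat

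A second set shows the members with the most extreme ratios between the libraries. SNORA65 at chr9:127448501-127448630 (minus strand) and SNORA8 at chr11:93732361-93732499 (minus strand) had the highest ratios. The 5 lowest were SNORA21B at chr17:38851524-38851659 (minus strand), SNORA54 at chr11:2963771-2963893 (minus strand), SNORD10 at chr17:7576811-7576952 (plus strand), SNORD94 at chr2:86135870-86136006 (plus strand) and SNORD97 at chr11:10801467-10801608 (minus strand). Capitals mark a C box, D box or 3' ACA as searched, and SNORD97 held none of them.
SNORA65: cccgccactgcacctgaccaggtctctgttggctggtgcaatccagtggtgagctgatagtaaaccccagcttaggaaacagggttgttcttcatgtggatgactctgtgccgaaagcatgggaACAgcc
SNORA8: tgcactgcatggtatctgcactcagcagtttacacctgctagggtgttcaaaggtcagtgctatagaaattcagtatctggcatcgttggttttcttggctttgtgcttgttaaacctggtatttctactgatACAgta
SNORA21B: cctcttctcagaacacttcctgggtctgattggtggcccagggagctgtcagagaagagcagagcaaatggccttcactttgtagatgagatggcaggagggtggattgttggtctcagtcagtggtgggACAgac
SNORA54: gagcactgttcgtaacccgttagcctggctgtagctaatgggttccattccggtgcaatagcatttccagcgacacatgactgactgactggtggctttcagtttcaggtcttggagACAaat
SNORD10: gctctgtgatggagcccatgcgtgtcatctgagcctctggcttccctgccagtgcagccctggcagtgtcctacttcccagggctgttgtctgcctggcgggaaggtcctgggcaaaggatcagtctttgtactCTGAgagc
SNORD94: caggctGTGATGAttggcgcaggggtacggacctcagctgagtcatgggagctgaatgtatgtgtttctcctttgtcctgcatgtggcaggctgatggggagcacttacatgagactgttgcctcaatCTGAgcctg
SNORD97: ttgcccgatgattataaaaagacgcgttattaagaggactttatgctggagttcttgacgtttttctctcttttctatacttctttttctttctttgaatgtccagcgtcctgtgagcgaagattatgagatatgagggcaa

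GENCODE held a sequence for 83 of the 104 members, and 3 motifs were searched in them on the RNA strand. NTGATGA (C box) was looked for in the first 20 bases, CTGA (D box) in the last 20 and ACA in the last 8. The D box was present in 33 of 35 SNORD members (94.3%) against 5 of 39 SNORA members (12.8%) and 9.19% of 205435 other GENCODE transcripts of at least 60 bases. ACA ended 35 of 39 SNORA members (89.7%) and 0 of 35 SNORD members, against 11.0% of the other transcripts. The C box as spelled was found in 15 of 35 SNORD members (42.9%), 0 of 39 SNORA members and 0.441% of the others. The 9 scaRNAs with a sequence were mixed, 5 with both C and D boxes and 4 with a terminal ACA. The classes named by symbol thus mostly carry the 3' ends that their names call for, and a missing match says only that these letters are not in the window.

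The libraries held 47099221 counts (control) and 68420805 counts (CIC knockdown), a ratio of 1.45. CIC mRNA was not lower where it was labelled knocked down: 607 counts against 872, a ratio per library size of 0.98 with a 95% counting interval of 0.882 to 1.09. ETV4 and ETV5, which CIC is known to repress, were higher there (ratios 4.62 and 4.93). Pairs of values give control first, and the second library is therefore called the library labelled CIC knockdown throughout. All 8 luminal markers had at least 100 counts, and 2 were higher and 4 lower. ESR1 had 18506 and 26158 counts. PGR, the progesterone receptor gene, had 1141 and 3466, a ratio of 2.07 (1.94 to 2.22), and was the only luminal marker at least 2-fold apart. Among markers of other cell types, PTPRC, CD3E, COL1A2, KRT5 and KRT14 had 0 counts in both libraries. PECAM1 had 2 and 16 counts, VWF 28 and 40, and COL1A1, a fibroblast collagen, 58 and 168 (0.195 and 0.390 FPKM, a low level per length). COL1A1 (1.46 to 2.71) and PECAM1 (1.28 to 48.9, under the minimum of 100 counts) were thus higher in the library labelled CIC knockdown. The part of cells of other types in the results was not tested.

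The members took 0.771% of all control counts (exact 95% interval 0.769% to 0.774%) and 0.672% of those labelled CIC knockdown (0.670% to 0.674%). Most of that was 1 RNA: SNORD3A alone made up 59.5% of the members' counts in the control library, and the 5 U3 genes together 72.1% and 71.2%. By class, SNORD members took 0.600% and 0.520% of all counts, SCARNA members 0.140% and 0.127%, and SNORA members 0.0309% and 0.0258%. Pooled over members and scaled by library size, the ratio of the library labelled CIC knockdown to control was 0.864 (95% interval 0.860 to 0.867). It was 0.858 for SNORD (0.854 to 0.862), 0.895 for SCARNA (0.886 to 0.905) and 0.827 for SNORA (0.809 to 0.846). All intervals cover counting error only, and in bulk RNA fewer cells of a type and less RNA per cell cannot be told apart.

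Counted gene by gene, 37 members were lower in the library labelled CIC knockdown (counting interval of the ratio wholly below 1), 4 were higher and 63 were neither. Among all 14827 genes with at least 100 summed counts, 27.0% were lower and 32.0% higher by the same rule. The members' median log2 ratio was -0.16, against 0.02 over all genes. At least 2-fold apart were 5 members, 2 higher and 3 lower, beside 1.29% and 1.22% of all genes.

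The classes differed in these counts, beside 27.0% lower and 32.0% higher of all genes, and the difference was not tested. Of 42 SNORA members 15 were lower, 3 higher and 24 neither, and their median log2 ratio was -0.24. The 14 SCARNA members held 10 lower, 0 higher and a median of -0.22. Of 48 SNORD members 12 were lower, 1 higher and 35 neither, and their median was -0.00, a value whose sign changed with the scaling (0.01 with total counts as library sizes and 0.03 with TPM). Without the 5 U3 genes the pooled SNORD ratio was 0.920 (0.904 to 0.937) and the median 0.01. The SNORD share that was lower was near that of all genes. Depth differed by class too: 10 SCARNA, 6 SNORA and 8 SNORD members had at least 1000 summed counts. Under 1000 counts the pooled ratios were 0.916 (0.877 to 0.956) for SNORA and 0.924 (0.884 to 0.967) for SNORD members. For the 4 SCARNA members there it was 0.831 (0.745 to 0.926). The medians of SNORA, SNORD and SCARNA members there were -0.14, 0.03 and -0.36.

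**Figure D1:**
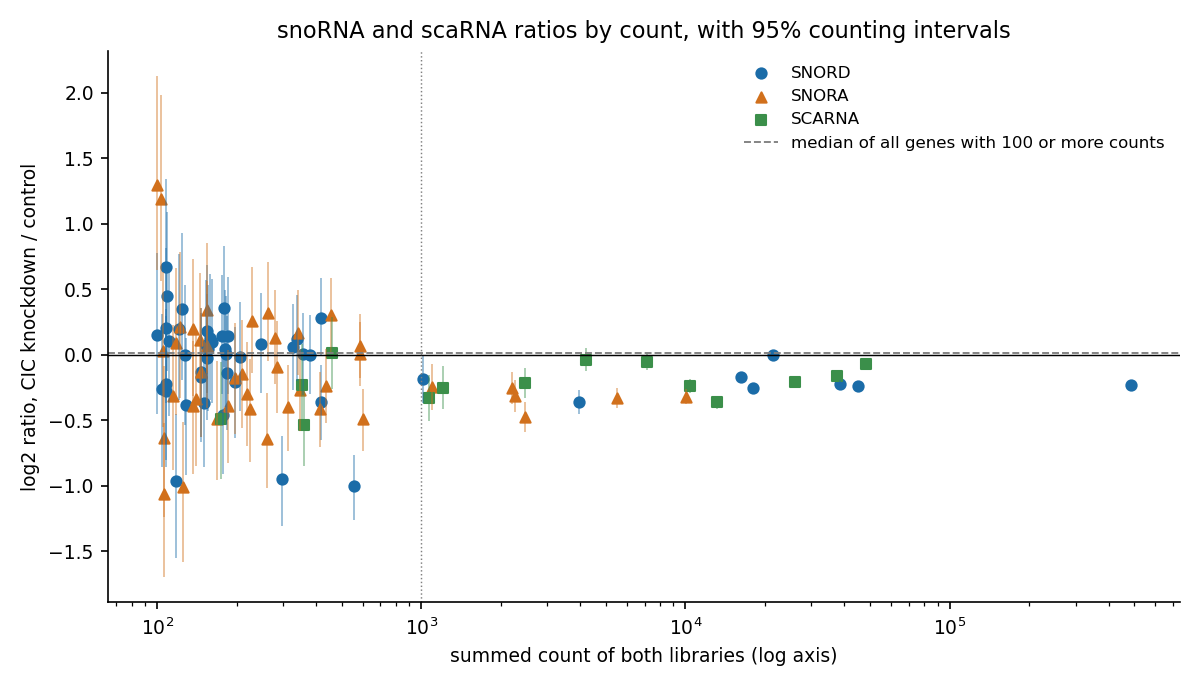
Each point is a snoRNA or scaRNA; the x axis is its summed count in both libraries (log axis) and the y axis the log2 ratio of the library labelled CIC knockdown to control, with 95% counting intervals. All 24 members to the right of the dotted line at 1000 counts lie below 0 (at least 22 of the 24 with other scalings or the table with assembled transcripts), while the 80 to its left spread on both sides around a median of -0.00.

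The ratios also varied with how deeply an RNA was counted. Of the 24 members with at least 1000 summed counts, 21 were lower, 0 higher and 3 neither (SNORD133, SCARNA21 and SCARNA12). All 24 log2 ratios were negative, from -0.47 to -0.00, with a median of -0.24. The 24 include the 5 U3 genes, which are almost the same in sequence, so their counts are not separate observations. Among the 10020 other genes of that depth 29.4% were lower and 36.7% higher, and the median was 0.02. The 80 members with 100 to under 1000 counts held 16 lower and 4 higher, and their median was -0.00, beside 21.8% lower and 22.7% higher among 4703 other genes of that depth. All 5 members at least 2-fold apart were in that stratum, where 2.96% of the other genes were 2-fold higher and 2.76% lower, and the deeper stratum had 0 of 24 beside 0.499% higher and 0.479% lower. Within the deeper stratum all 3 classes were negative, with medians of -0.32 for 6 SNORA, -0.23 for 8 SNORD and -0.21 for 10 SCARNA members. The exceptions to the negative sign were SNORD133, at 0.01 with total counts and 0.03 with TPM, and SNORD3D in the table with assembled transcripts, so at least 22 of the 24 were negative under each scaling and in that table.

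U3 carries the early cleavages that release the precursor of 18S rRNA, and its 5 genes were all members and all lower in the table of annotated genes. SNORD3A was counted 216050 times in control and 270233 times in the library labelled CIC knockdown, or at 19888 and 17153 FPKM (fragments scaled to transcript length and library, a level per length), and its scaled ratio was 0.853 (0.848 to 0.858). SNORD3B-2 had 20069 and 24904 counts, SNORD3B-1 16994 and 21338, SNORD3D 7054 and 9179, and SNORD3C 1844 and 2104. The level of U3 was thus spread over genes whose counts ran from 1844 to 216050 in the control library, while the 5 log2 ratios lay between -0.36 and -0.17. The 5 sequences have 217 bases each and differ by 0 to 4 edits (98.2% to 100% identity), SNORD3B-1 and SNORD3B-2 by none. Reads cannot be placed among such copies with certainty, so the sum is the firmer quantity: 262011 and 327758 counts, with a ratio of 0.853 (0.849 to 0.858). In the table that adds assembled transcripts, SNORD3D turned to a log2 ratio of 0.13 on 2561 and 4066 counts, while the sum of the 5 genes had a ratio of 0.865 (0.860 to 0.869).

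The other RNAs of precursor processing were followed from a list of 15 genes, of which 10 were members and 7 were lower: the 5 U3 genes and the 2 copies of U17. None was higher, and among other genes with at least 1000 counts, a depth that all 7 reached, 29.4% were lower and 36.7% higher. The 7 are copies of 2 RNAs, so they do not count as 7 separate genes beside these shares. U17, an H/ACA RNA needed for 18S rRNA maturation, came from SNORA73A with 4627 and 5441 counts (446 and 362 FPKM) and SNORA73B with 2528 and 2956 counts (246 and 198.6 FPKM). The copies, 93.2% identical, had ratios of 0.802 (0.771 to 0.834) and 0.798 (0.756 to 0.841). RCC1, an annotated gene whose interval holds them, had 2363 and 3631 counts and a log2 ratio of 0.07, against -0.32 and -0.33 for the U17 copies. Host genes were assigned by position. Whether the copies are cut from RCC1 or from another gene there was not tested. The remaining members of the list were neither: SNORD22 (U22) had 154 and 226 counts, and the U14 genes SNORD14B and SNORD14D had 63 and 84 and 36 and 73 counts. Under the minimum lay the U14 genes SNORD14A, with 38 and 47 counts, SNORD14C with 28 and 39 and SNORD14E with 14 and 22. So did SNORD13 (U13) with 5 and 7, and SNORD118 (U8), an RNA of 28S maturation, with 1 in each library. Whether such low counts reflect the level of these RNAs or their recovery by the kit and counting was not tested.

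Among the remaining abundant box C/D RNAs, SNORD17 was lower and SNORD133 was not. SNORD17, of 237 bases inside SNX5, had 8110 and 9956 counts (683 and 579 FPKM), a ratio of 0.837 (0.813 to 0.862). SNORD133, of 216 bases, had 8739 and 12782 counts (808 and 815 FPKM), a ratio of 0.998 (0.971 to 1.03). Their intervals do not overlap, and the 2 RNAs are of like length and level. The 6 most abundant SNORA members were SNORA73A, SNORA73B, SNORA63, SNORA12, SNORA53 and SNORA48, and all 6 were lower. SNORA53 was the lowest of them, with 1205 and 1272 counts, a ratio of 0.720 (0.665 to 0.780). SNORA63 had 1039 and 1226 counts, SNORA12 987 and 1215, and SNORA48 490 and 606, with log2 ratios from -0.31 to -0.24.

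The 14 scaRNAs had the highest median level per length of the 3 classes, 104.8 FPKM in control against 18.3 for SNORD and 13.3 for SNORA members. Of the 14, 10 were lower and 4 neither. SCARNA2, a guide for the U2 snRNA that has its own promoter, had 20212 and 28243 counts (961 and 926 FPKM) and a ratio of 0.953 (0.936 to 0.970). SCARNA10 had 16205 and 21197 counts (981 and 885 FPKM) and a ratio of 0.892 (0.874 to 0.911), and SCARNA7 11446 and 14499 counts and 0.864 (0.843 to 0.885). The ratio was further from 1 for SCARNA5, with 6165 and 7032 counts (443 and 348 FPKM) and a ratio of 0.778 (0.752 to 0.805). SCARNA6, inside the same gene, ATG16L1, had 1090 and 1379 counts, a ratio of 0.863 (0.796 to 0.935). ATG16L1 itself had a log2 ratio of -0.14, between 0 and the -0.36 and -0.21 of the 2 scaRNAs.

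SCARNA13 had 4626 and 5756 counts, a ratio of 0.849 (0.816 to 0.882). SCARNA9, a U2 guide, had 542 and 668 counts, SCARNA28 492 and 575, SCARNA26A 179 and 180, and SCARNA16 86 and 89. All 5 were lower, with log2 ratios from -0.54 for SCARNA26A to -0.24 for SCARNA13. The 4 scaRNAs that were neither were SCARNA21 with 2974 and 4209 counts, SCARNA12 with 1728 and 2471, SCARNA9L with 186 and 275, and SCARNA17 with 157 and 196. SCARNA21 and SCARNA12 had ratios of 0.965 (0.921 to 1.01) and 0.975 (0.917 to 1.04), intervals that leave out the ratio of SCARNA5. SCARNA9L, the only scaRNA with a positive log2 ratio (0.01), had an interval of 0.834 to 1.22. That interval includes the ratios of SCARNA21 and SCARNA12 and leaves out that of SCARNA5.

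**Figure D2:**
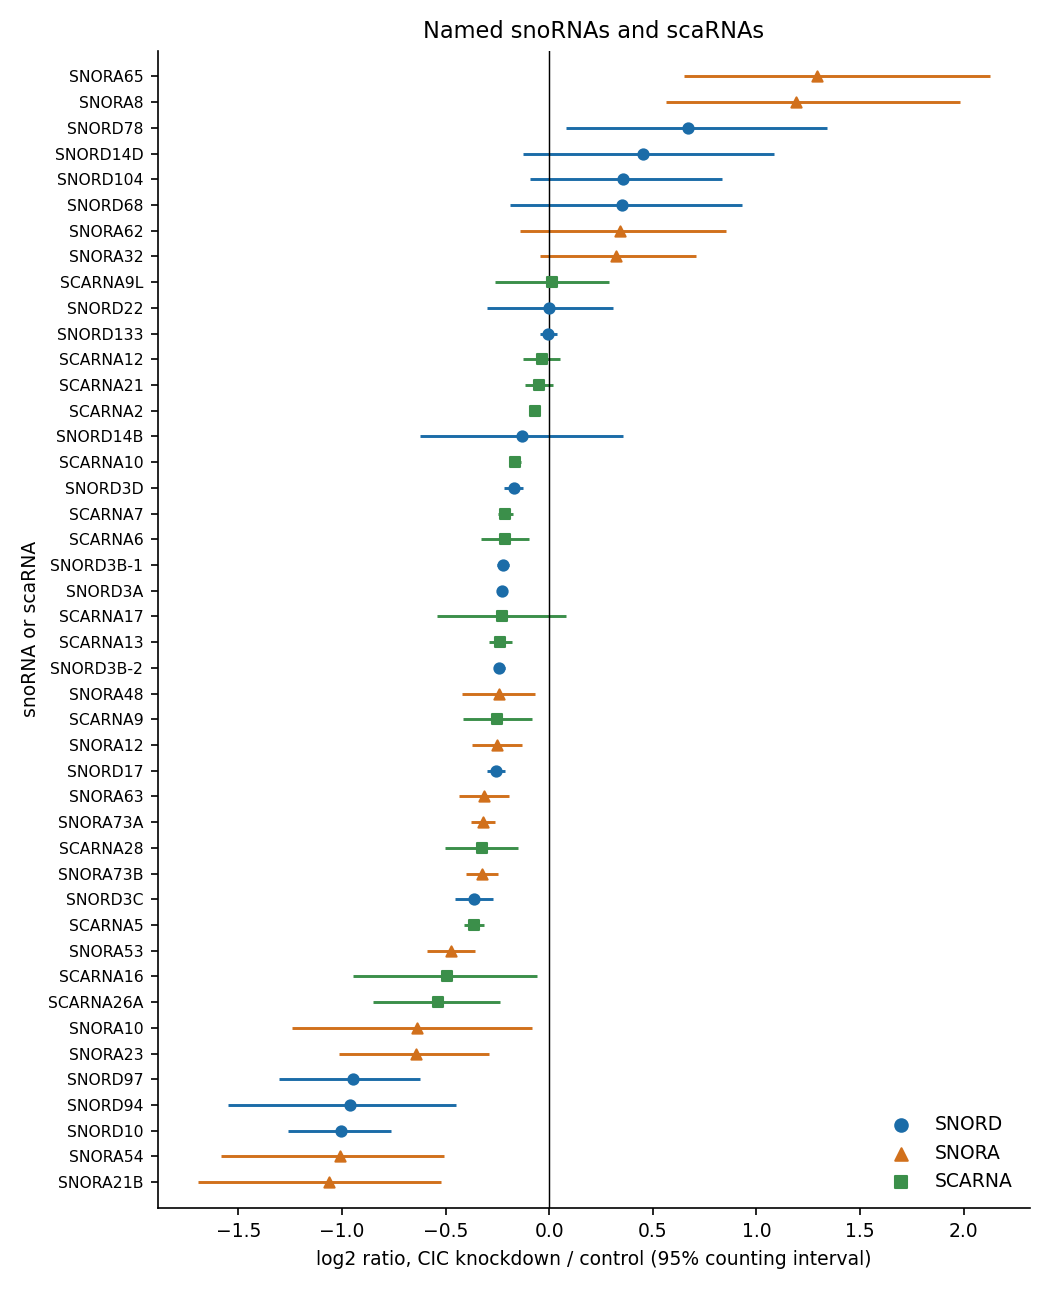
Each row is a snoRNA or scaRNA described by name; the x axis is the log2 ratio of the library labelled CIC knockdown to control and bars are 95% counting intervals. The U3 genes and scaRNAs lie between -0.54 and 0.01, while SNORA65 and SNORA8 at the top and the 5 lowest members stand apart; bars are longer where counts are fewer.

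The largest ratios came from sparsely counted RNAs. SNORA65 had 21 control counts against 79 (3.01 and 7.92 FPKM), a log2 ratio of 1.29 with an interval of the ratio of 1.57 to 4.37. SNORA8 had 23 and 80 counts (3.16 and 7.91 FPKM), a log2 ratio of 1.19 and an interval of 1.48 to 3.95. Both H/ACA RNAs sit just inside the minimum of 100 and reached it through the library labelled CIC knockdown, so the rule favoured their high values there. The other 2 higher members were SNORD78, with 32 and 76 counts (log2 0.67), and SNORA57, named after its value was seen, with 162 and 293 counts (log2 0.30). With counts halved, as would apply had mates been counted separately, SNORA65 and SNORA8 kept an interval above 1, and SNORD78 and SNORA57 did not. Next in order came SNORD14D (log2 0.45), SNORD104 (62 and 117 counts, 0.36), SNORD68 (43 and 81, 0.35), SNORA62 (54 and 101, 0.34) and SNORA32 (93 and 171, 0.32), all with intervals that include 1. SNORA32 was listed with 1 count in each library in the table with assembled transcripts.

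At the other end, 5 members were near or beyond a 2-fold lower level. SNORA21B had 63 and 43 counts (9.30 and 4.30 FPKM), a log2 ratio of -1.06 and an interval of 0.308 to 0.697. SNORA54 had 73 and 52 counts (11.8 and 5.72 FPKM), a log2 ratio of -1.01 and an interval of 0.334 to 0.703. SNORD10, a guide for the U6 snRNA, was the deepest of the 5, with 323 and 235 counts (43.6 and 21.9 FPKM), a ratio of 0.499 with an interval of 0.418 to 0.589. SNORD94, which also guides U6, had 68 and 50 counts (log2 -0.96), and SNORD97, a guide for a methionine tRNA, had 170 and 128 (log2 -0.95). In each of the 5 the library with more total counts held fewer counts of the RNA, and each kept an interval below 1 with halved counts. SNORA21B, SNORD94 and SNORA54 lay not far above the count minimum, with summed counts of 106, 118 and 125. More of these came from the control library, so the rule on summed counts favoured their high values there. Halved counts do not remove that selection. After a gap, SNORA23 (135 and 126 counts) and SNORA10 (55 and 51) followed, both at -0.64, ahead of SCARNA26A at -0.54. SNORA10 has a near-identical copy, SNORA10B, with 98.5% identity, so its reads may be shared.

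The genes that hold the 2 highest and the 5 lowest members did not show the same ratios. NAP1L4 (around SNORA54), PTCD3 (SNORD94), EIF4G2 (SNORD97) and EIF4A1 (SNORD10) had log2 ratios of 0.03, 0.03, 0.12 and -0.01. RPL23, around SNORA21B, was at -0.15. RPL12, around SNORA65, was at -0.14, and TAF1D, around SNORA8, at -0.15. All 7 host log2 ratios thus lay between -0.15 and 0.12, while those of the snoRNAs were at most -0.95 or at least 1.19. These snoRNAs were picked for their extreme ratios and their genes were not. The choice alone can give such a gap, so no conclusion is drawn from it. Several other members lay on the same side of 0 as their gene, and such members were not counted. Among them were SNORA57 (0.30) in CSKMT at 0.98, SNORD14D (0.45) in HSPA8 at 0.26, and SCARNA26A (-0.54) in YY1AP1 at -0.73. The strand of SCARNA26A was not known. SNORD10 and SNORA21B also shared the sign of their gene, though not the size of its ratio.

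The 5 members closest to the minimum from inside were SNORA65 and SNORD88B with summed counts of 100, SNORA8 with 103, SNORD58C with 104 and SNORA3A with 105. The 5 closest from outside were SNORD18C with 99, SNORD12C and SNORA7B with 98, SCARNA22 with 96 and SNORA5C with 95. The log2 ratios of those outside ran from -0.79 for SNORA5C to 0.04 for SNORA7B.

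Level and ratio both varied with the annotated length of the RNA, in bins chosen after the values were seen. Of 302 genes under 100 bases 34 were members, of 234 with 100 to under 200 bases 48, and of 34 with at least 200 bases 22. Those 22 held 96.3% and 96.1% of the members' counts, and their median control level was 389.5 FPKM against 13.3 for 100 to under 200 bases and 16.8 under 100. Of the 22 long members 16 were lower and 0 higher (median log2 -0.23, pooled ratio 0.862). Of the 48 intermediate ones 18 were lower and 3 higher (median -0.21, pooled 0.878, 0.856 to 0.900). Of the 34 short ones 3 were lower and 1 higher (median 0.05, pooled 0.986, 0.940 to 1.03). Over all genes 27.0% were lower and 32.0% higher. The bins also differed in depth, with median summed counts of 10225, 203 and 160.5 from long to short, and among other genes 29.4% were lower at 1000 or more counts against 21.8% under that. The part of depth in the difference between bins was not tested. The share of molecules of each length that the kit and counting recovered was not tested.

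Length and class overlap, since 33 of the 34 short members were SNORD. Box C/D RNAs of at least 200 bases (7 members, 5 of them U3 genes) had a median log2 ratio of -0.23 with 6 lower, and those under 100 bases a median of 0.05 with 3 lower of 33. SNORA members of 100 to under 200 bases had a median of -0.21 with 12 lower of 36, and the 5 longer ones -0.32 with 3 lower. The 8 SNORD members of 100 to under 200 bases had 3 lower and 0 higher, a median of -0.01 and a pooled ratio of 0.722 (0.659 to 0.789). Those 3 were SNORD10, SNORD94 and SNORD97. The median of the SNORD class near 0 thus joined long RNAs that were lower, a mixed intermediate group and short ones that mostly were neither.

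**Figure D3:**
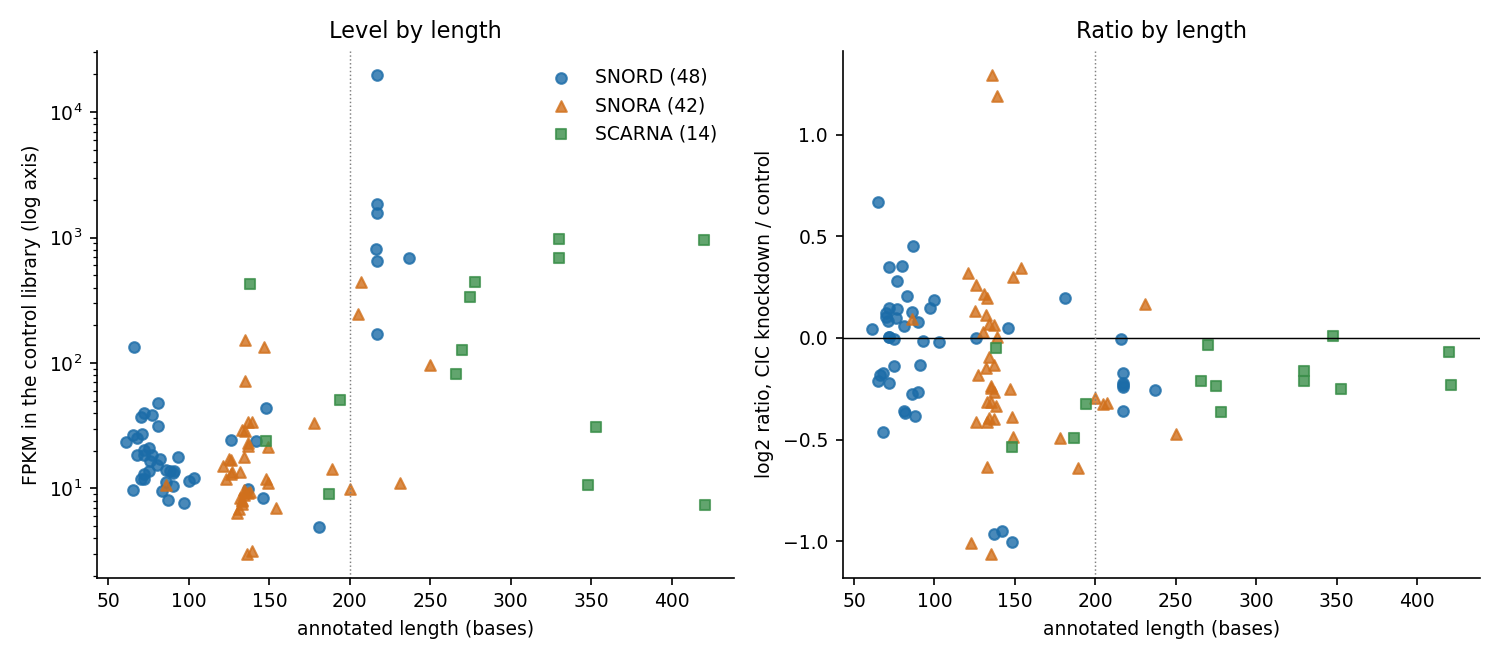
Points are the 104 members by class; the x axis of both panels is annotated length in bases, the left y axis the FPKM in the control library (log axis) and the right y axis the log2 ratio of the library labelled CIC knockdown to control. Members of at least 200 bases (right of the dotted line) reach 19888 FPKM and all but 2 lie below 0 in the right panel, while those under 100 bases straddle 0.

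By position, 100 of the 104 members lay inside another annotated gene, 21 of them by coordinates alone because no sequence match gave their strand, and 4 of the U3 genes lay in none. For 96 members the containing gene had at least 100 counts, 63 such genes in all. Per length, 19 members exceeded that gene in both libraries and 74 were under it in both. The members above it were mainly long: 11 of 15 with at least 200 bases, 7 of 47 with 100 to under 200 and 1 of 34 under 100. By class they were 10 of 12 scaRNAs, 6 of 41 SNORA and 3 of 43 SNORD members. SCARNA10 stood at 981 FPKM in the control library against 11.3 for NCAPD2 around it, and SCARNA7 at 693 against 11.5 for KPNA4.

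Exons of a containing gene overlapped 67 members, and 33 lay clear of them. Reads of the host over an overlapped snoRNA cannot be told apart from the snoRNA. The same holds for reads of host introns over a clear one, since the libraries were made from total RNA. Of the 33 clear members 15 were lower and 2 higher (median log2 -0.21), and of the 67 overlapped ones 18 were lower and 2 higher (median -0.04), beside 27.0% lower and 32.0% higher of all genes. Across the 96 pairs the Spearman correlation of snoRNA and host log2 ratios was -0.15, a description of 2 libraries in which several members share a host.

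Hosts that held at least 3 members were named after their values were seen. GAS5, a noncoding gene whose introns carry box C/D RNAs, had 9957 and 11514 counts, a ratio of 0.789 (0.768 to 0.810). Its 9 members summed to 835 and 1278 counts, a ratio of 1.04 (0.956 to 1.14), and 8 of the 9 log2 ratios were positive. TAF1D, a subunit of an RNA polymerase I factor, had 1591 and 2096 counts, a ratio of 0.899 (0.841 to 0.960), against 1.16 (1.01 to 1.34) for its 5 members. The TAF1D value rested on SNORA8: without it the other 4 members had a ratio of 1.07 (0.924 to 1.24), an interval that includes 1 and overlaps that of the gene. Without SNORD78 the other 8 members of GAS5 had a ratio of 1.02 (0.933 to 1.12), still above the interval of the gene.

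SNHG1, another noncoding host, had 2826 and 3412 counts, a ratio of 0.824 (0.783 to 0.866), against 0.932 (0.831 to 1.04) for its 6 members. EIF4A2, a helicase of translation initiation, had a ratio of 0.860 (0.845 to 0.875), and its 5 members together 0.859 (0.807 to 0.914). Singly the members were split, 2 lower and 3 neither, with a median log2 ratio of 0.07. The lower ones were SNORA63 (-0.31), with 1039 of the 1802 control counts of the 5, and SNORA81 (-0.49). SNORA4, SNORD2 and SNORA63B were at 0.07, 0.12 and 0.13. EIF4A1, the paralog of EIF4A2, went the other way from GAS5. EIF4A1 had a ratio of 0.992 (0.981 to 1.00) on 47812 and 69567 counts, and its 3 members 0.726 (0.664 to 0.793). Of those 3, SNORD10 supplied the largest difference, and SNORA48 and SNORA67 had log2 ratios of -0.24 and -0.27; without SNORD10 the pooled ratio was 0.841 (0.756 to 0.933), still under the interval of the gene. The strand of several GAS5 and SNHG1 members was not known, and in the table with assembled transcripts 7 members, among them SNORD22, SNORD26 and SNORD28 of SNHG1, were joined with longer assembled transcripts that contain them.

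**Figure D4:**
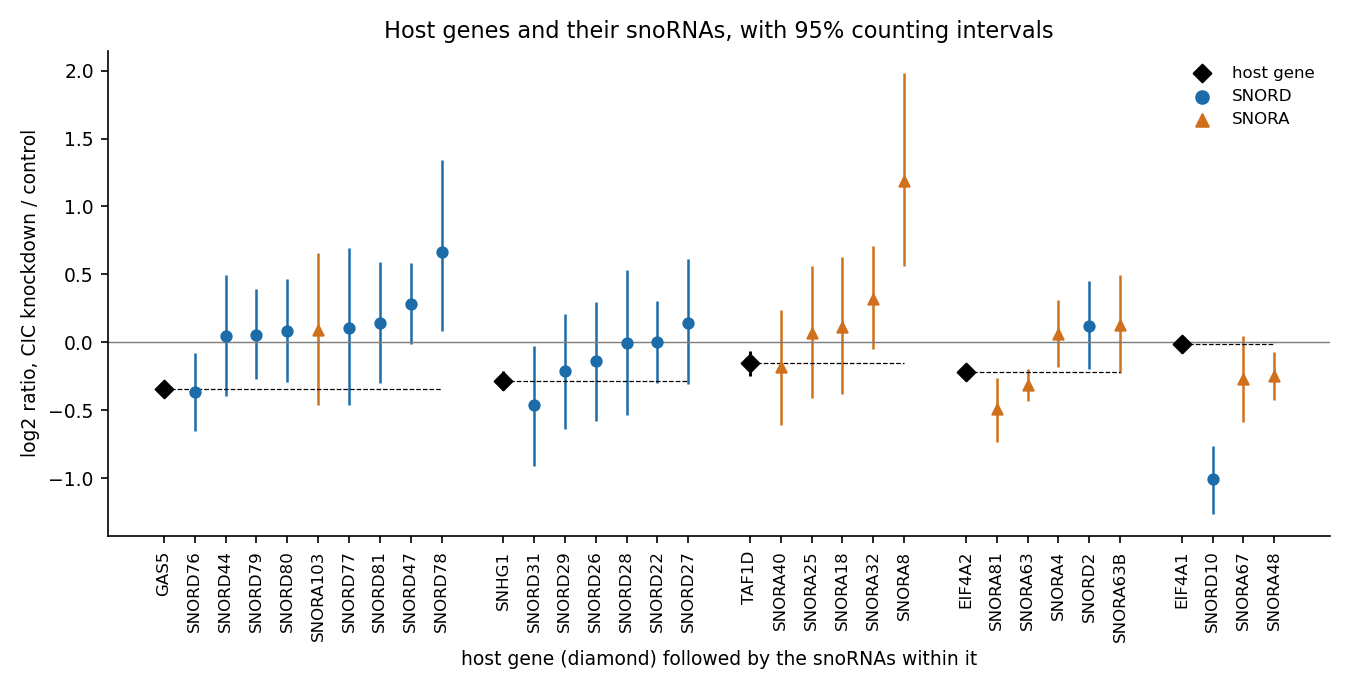
For each of the 5 genes that hold at least 3 members, the diamond is the gene and the coloured points are its snoRNAs; the y axis is the log2 ratio of the library labelled CIC knockdown to control, with 95% counting intervals. The snoRNAs of GAS5 lie above the dashed host level with the exception of SNORD76, and the 3 of EIF4A1 lie under theirs.

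The proteins that build and carry these particles were found higher and lower. Of 32 listed partner genes, 30 were in the table and all 30 had at least 100 counts: 11 were higher and 7 lower, beside 32.0% and 27.0% of all genes, and the median log2 ratio was 0.03. In the group of box C/D core and assembly proteins 4 of 12 were higher and 4 lower, in the H/ACA group 1 of 6 and 2, and in the Cajal body and transport group 6 of 12 and 1. The ratio of fibrillarin (FBL) was 0.974 (0.908 to 1.04) on 1359 and 1941 counts, and that of dyskerin (DKC1) was 1.01 (0.964 to 1.06) on 2963 and 4387. These 2 catalytic subunits, named after their values were seen, had intervals that include 1. The interval of the pooled SNORD ratio of 0.858 (0.854 to 0.862) lay under that of FBL. Without the U3 genes the pooled ratio was 0.920, and its interval (0.904 to 0.937) overlapped that of FBL. The FBL ratio of 0.974 still lay above that pooled interval.

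The partner with the largest difference was an assembly factor of box C/D particles. ZNHIT6 had 803 and 511 counts (2.56 and 1.27 FPKM), a log2 ratio of -1.20 and an interval of 0.388 to 0.486. It was the only listed partner at least 2-fold apart. GAR1, an H/ACA core protein, followed with 238 and 263 counts (log2 -0.40), then NAF1, an H/ACA assembly factor, with 270 and 322 (-0.30), and NUFIP1, a box C/D assembly factor, with 629 and 789 (-0.22). At the high end were TCOF1, the nucleolar protein treacle, with 1030 and 1957 counts (0.37), TOE1, a Cajal body deadenylase, with 644 and 1191 (0.33), WRAP53, which brings scaRNAs to Cajal bodies, with 359 and 639 (0.28), and RUVBL1, an assembly ATPase, with 2860 and 5018 (0.26). All 8 intervals left out a ratio of 1.

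The large imprinted C/D clusters, known as brain-enriched, gave no member. The 9 SNORD113 and 48 SNORD115 genes had 0 counts in both libraries, where a count of 0 allows up to 3. The 31 SNORD114 genes summed to 2 and 10 counts, and the 30 SNORD116 genes to 0 and 4.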

How the data were processed

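Tools listed in the submitters' processing notes, with neither role nor version, are HISAT2, StringTie and Trimmomatic, and the builds are hg38 and GRCh38. Per the file headers, every gene carries values per library, an FPKM, a TPM and a read count. The deposited counts are estimated counts, derived from coverage and already whole. The FPKM values were scaled by the authors to transcript length and library, and the deposited TPM values sum to nearly the same total in each library.

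Library sizes of 47099221 and 68420805 were scaled over all 46732 genes by TMM (edgeR 4.0.16, R 4.3.3), with factors of 0.995 and 1.00. Log2 ratios used a prior count of 2. Exact Clopper-Pearson 95% intervals, computed with scipy 1.17.1 conditional on the summed count and without the prior, gave the calls: higher or lower where the whole interval was above or below 1, and at least 2-fold where the log2 ratio also reached 1 in size. Intervals cover counting error only. With 1 library per group no test or p-value was possible. The calculation was tested on simulated data.

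Hosts were GENCODE 29 genes whose interval holds the member on its strand. Where several genes held a member, only the gene with the largest summed count was compared with it. Where no GENCODE sequence matched (21 members), the strand was not known and genes on either strand were taken. A copy was called near-identical from 95% identity. By rule, the named members were all SCARNA members; the 6 SNORA and 6 SNORD members with the highest mean TPM; the 8 highest and 8 lowest log2 ratios; members of the list of precursor processing RNAs; the 4 highest and 4 lowest partner proteins; and the 5 genes on each side of the minimum of 100. Host genes are named beside their members. The members and lists were chosen with earlier results of these data known. Alternatives covered library scaling (total counts, DESeq2 1.42.0 size factors, the TPM and FPKM ratios), the table with assembled transcripts, count minimums of 50, 500 and 1, halved counts, exon overlap and a prior count of 0.5. Leaving out U3, near-identical copies, members by length, or the most extreme member of a host was added after seeing the data. There were 0 unused columns of per-sample values.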

Additional observations from a re-analysis of the deposited data

How the results depend on the processing

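The 37 lower calls changed little with scaling: 36 of the same members stayed lower with total counts as library sizes, 36 with DESeq2 size factors, 35 with TPM and 36 with FPKM ratios, and 34 in the table with assembled transcripts. With halved counts 28 of them stayed lower. Fewer members entered, and fewer were lower, at a minimum of 500 counts (23 of 28), without members overlapping an exon (19 of 37), among members of 200 or more bases (16 of 22) and among members under 200 bases (21 of 82). The 4 higher calls became 8 in the table with assembled transcripts, 7 at a minimum of 50 counts, 11 at a minimum of 1, 0 at 500, 2 with halved counts, 2 without exon overlap and 0 among members of 200 or more bases. The 5 members at least 2-fold apart became 3 with total counts, 8 at a minimum of 50, 19 at a minimum of 1, 1 at 500, 3 with halved counts, 2 without exon overlap and 0 among members of 200 or more bases.

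The median log2 ratio of SNORD members was -0.23 at a minimum of 500 counts and -0.23 among members of 200 or more bases, and the median of SCARNA members under 200 bases was -0.41. The medians of SNORA members stayed negative under all alternatives run. In the table with assembled transcripts SNORD3D reversed to 0.13 (log2), and there the counts of 12 members changed by over 1.5 times in a library; the cause was not tested. Of the other values of the 44 named members, 432 moved by less than their counting interval and 10 by more. No paired analysis was possible because each group has 1 library. Depth limits the 80 members under 1000 counts most, and differences between cultures were not measured.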

Other observations

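SNORD10 and SNORD94, both among the 5 lowest members, guide the U6 snRNA, and the other U6 guides were looked up after these values were seen. SNORD7 had 5 and 6 counts in the control library and the library labelled CIC knockdown, SNORD8 had 7 and 6, SNORD9 had 12 and 12, and SNORD67 had 6 and 17. Their log2 ratios were -0.21, -0.59, -0.47 and 0.79. All 4 intervals include 1, and none of the 4 reached the minimum of 100 counts, so whether U6 guides as a group were lower could not be seen at this depth.

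The telomerase RNA TERC, an H/ACA-class RNA that lies outside the biotypes used here, was also looked up after the values were seen. It had 2707 and 3922 counts, a ratio of 0.988 (0.941 to 1.04), which lies above the pooled SNORA ratio of 0.827 (0.809 to 0.846). That pool rests much on U17: SNORA73A and SNORA73B held 4627 and 2528 of its 14556 control counts. SNORA members with at least 1000 counts pooled to 0.797 (0.777 to 0.818). Those under 1000 counts pooled to 0.916 (0.877 to 0.956), an interval that overlaps that of TERC.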
